A study of Mus musculus with 7 samples.

Results

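The interleukin-1 family genes examined here are 9 genes of the deposited table of 29869 gene symbols: the ligand genes Il33, Il18, Il1b and Il1a, the antagonist gene Il1rn, the decoy receptor gene Il1r2, and the receptor genes Il1r1, Il1rl1 and Il1rap. They were taken by gene symbol, each was found once, and 7 of the 9 passed the low-count filter of the test. Transcripts were sequenced from whole soleus, a slow-twitch hindlimb muscle, of mice aged 60 days. The groups are 3 animals labelled mdx/Runx1f/f and 4 labelled mdx. All 7 carry mdx, the mutation that removes dystrophin and models Duchenne muscular dystrophy, so no animal with dystrophin serves as a control. The mdx/Runx1f/f label adds floxed alleles of Runx1, a transcription factor gene induced in damaged muscle. Neither the Cre driver nor the exons between the loxP sites can be read from the labels.

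Ligands of the interleukin-1 family are released by damaged or activated cells and act on receptors that pair with an accessory subunit and signal through Myd88 to NF-kB. The accessory subunit is the product of Il1rap for interleukin 1 and interleukin 33, and that of Il18rap for interleukin 18. Interleukin 1 alpha and interleukin 1 beta bind the receptor encoded by Il1r1, while the product of Il1rn occupies that receptor without signalling and the product of Il1r2 binds the ligand as a decoy. Interleukin 33, a nuclear alarmin of stromal cells in mouse muscle, binds ST2, the product of Il1rl1, which is found on regulatory T cells, mast cells and type 2 innate lymphoid cells. Interleukin 1 beta and interleukin 18 are made as precursors that caspase-1 cleaves in the inflammasome, so a transcript level does not give the amount of active cytokine.

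The libraries held 16218306 to 20847902 counts, of which the 9 genes took 929, 1915 and 842 in mdx/Runx1f/f replicates 1 to 3, and 511, 678, 341 and 514 in mdx replicates 1 to 4. Runx1, the targeted gene, was at 919, 925 and 596 normalised counts (the authors' read counts divided by 1 size factor per library) in the libraries labelled mdx/Runx1f/f, against 274, 273, 235 and 201 in those labelled mdx. By edgeR its log2 fold change was 1.74 (SE 0.18, adjusted p = 0.00795), which goes against a loss of the transcript in the group labelled mdx/Runx1f/f. Counts over a whole gene need not show a deleted part of it. The sample titles and the design text disagree on which genotype has 3 and which has 4 animals, and the description field ties most animal numbers to a sample other than the one so titled. Groups follow the titles here, and every direction below is that of the libraries as labelled. With groups by the description field edgeR called 8 genes in all, against 975 by the titles, where called means an adjusted p below 0.05.

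Of the 9 genes, Il1rn and Il33 rose in the libraries labelled mdx/Runx1f/f and none fell. In whole muscle more cells of a type and more RNA per cell cannot be told apart. Across all 14033 genes tested edgeR called 6.95%, with 5.1% higher and 1.85% lower, and 4135 had an unadjusted p below 0.05. The 7 tested members had log2 fold changes between 0.22 and 2.70 with a median of 1.15, beside a median of -0.0016 over all tested genes. In 4 members, Il33, Il1rn, Il18 and Il1r1, the groups did not overlap, with mdx/Runx1f/f the higher one, which held for 13.9% of all genes tested, beside 13.6% with it lower and 27.4% in either direction. By DESeq2 these 4 were called higher, against 11.1% of the genes that DESeq2 tested, with 6.72% called lower. Il1rn and Il1b passed the low-count filter only with the mdx/Runx1f/f libraries, so these counts and the median describe the 7 and are no evidence about the family.

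**Figure D1:**
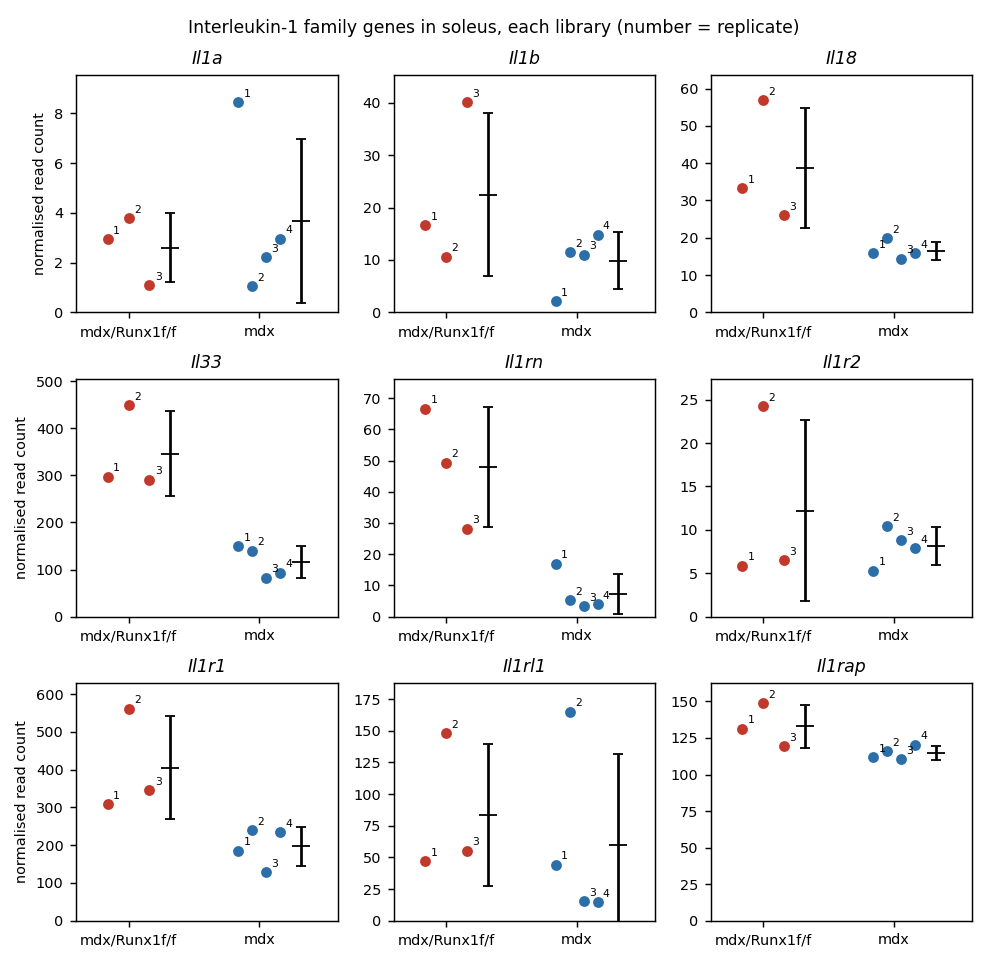
Normalised read counts of the 9 genes, 1 panel a gene, with mdx/Runx1f/f left of mdx; each point is a library with its replicate number and the bar is the mean with the SD (n = 3 and n = 4, the lower bar of Il1rl1 in mdx cut at 0). Il33, Il1rn, Il18 and Il1r1 are parted between the groups, while Il1rl1 is high in replicate 2 of each group.

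Il33, which encodes the alarmin interleukin 33, had the highest mean per length of the 9 members in each group, overlapping Il1r1 in the mdx libraries, and exceeded its level in mdx libraries 2.99-fold in those labelled mdx/Runx1f/f. It stood at 298, 449.8 and 291 normalised counts in mdx/Runx1f/f replicates 1 to 3, and at 149, 139.9, 82.8 and 92.8 in mdx replicates 1 to 4. The lowest mdx/Runx1f/f library was thus well above the highest mdx library, and mdx/Runx1f/f replicate 2 was the highest of all. The means were 346 ± 89.9 in mdx/Runx1f/f (SD, n = 3) and 116 ± 33.2 in mdx (SD, n = 4), and edgeR put the log2 fold change at 1.58 (SE 0.25, adjusted p = 0.0173). Leaving out mdx/Runx1f/f replicate 2 gave 1.35 and ended the call (edgeR adjusted p = 0.0569), while it was kept without any of the other 6 libraries. The animal numbers of the titles fall into 358 to 363 and 373 to 375. The description field gives the first range to the mdx samples and the second to the mdx/Runx1f/f samples. These ranges are thus the same split as the groups by the description field, and the labels do not say what else they mark. Within animals 358 to 363 the log2 fold change of Il33 was 1.39 and edgeR did not call it (adjusted p = 0.136), and within animals 373 to 375 it was 1.73 and was called (edgeR adjusted p = 0.000633). In animals 373 to 375 mdx/Runx1f/f replicate 3 is the only library of its group and is taken to vary like the mdx ones.

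RefSeq gives Il33 a pair of transcript starts, and the 250 bases before each are shown because Il33 and Il1rn both rose and the floxed gene encodes a transcription factor. They are from build GRCm38.p6, forward strand, 5′ to 3′, at chr19:29924863-29925112 and chr19:29945540-29945789. Capitals would mark the RUNX words TGTGGT and TGCGGT, read on both strands, the AP-1 words TGACTCA and TGAGTCA, or the kappa-B consensus, and neither window holds any.
Il33 start 1: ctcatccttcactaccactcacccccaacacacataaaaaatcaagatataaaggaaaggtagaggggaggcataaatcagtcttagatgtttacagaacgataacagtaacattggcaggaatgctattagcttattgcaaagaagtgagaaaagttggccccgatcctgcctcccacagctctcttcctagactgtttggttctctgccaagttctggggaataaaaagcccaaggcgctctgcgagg
Il33 start 2: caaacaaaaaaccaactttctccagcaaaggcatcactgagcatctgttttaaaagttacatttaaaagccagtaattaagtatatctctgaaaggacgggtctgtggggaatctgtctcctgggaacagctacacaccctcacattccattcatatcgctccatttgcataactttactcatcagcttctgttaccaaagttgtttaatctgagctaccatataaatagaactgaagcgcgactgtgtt

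In these windows before all starts in the RefSeq table, 32851 in number, a RUNX word stood in 18.6%, an AP-1 word in 4.46% and a kappa-B match in 7.25%. Of the 14 windows of the 9 members, 2 held a RUNX word, 2 an AP-1 word and 1 a kappa-B match. The RUNX words were in windows of Il18 and Il1rl1, the AP-1 words in Il1a and Il1rn, and the kappa-B match in Il1r1. A match is a string of letters and no site of binding, and a window without one says nothing of enhancers outside it.

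Il18, the gene of the inflammasome-dependent cytokine interleukin 18, was at 33.3, 56.9 and 26.0 normalised counts in the libraries labelled mdx/Runx1f/f, against 15.8, 19.8, 14.4 and 15.8 in those labelled mdx. The mdx libraries lay close together and all 3 mdx/Runx1f/f libraries were above them. The means were 38.7 ± 16.1 in mdx/Runx1f/f (SD, n = 3) and 16.5 ± 2.36 in mdx (SD, n = 4). The log2 fold change of 1.25 (SE 0.31) missed the threshold by edgeR (adjusted p = 0.0512) and passed it by DESeq2 (adjusted p = 0.0184). Without mdx/Runx1f/f replicate 3 edgeR called it (log2 fold change 1.45, adjusted p = 0.0457), and without mdx/Runx1f/f replicate 2 the estimate was 0.86 (edgeR adjusted p = 0.161). Within animals 358 to 363 it was 1.35 and within animals 373 to 375 it was 0.78 (edgeR adjusted p = 0.198 and 0.368). Its window, chr9:50554450-50554699 on the forward strand of GRCm38.p6, is shown since it holds a RUNX word, in capitals as read from the other strand.
Il18: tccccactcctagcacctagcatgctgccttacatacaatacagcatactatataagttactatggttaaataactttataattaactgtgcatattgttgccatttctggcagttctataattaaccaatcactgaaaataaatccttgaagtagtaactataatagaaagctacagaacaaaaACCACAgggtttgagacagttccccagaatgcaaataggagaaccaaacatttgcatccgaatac

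Il1b, the gene of interleukin 1 beta, was not called by edgeR, at 2 to 37 raw counts a library. It stood at 16.6, 10.6 and 40.1 normalised counts in mdx/Runx1f/f replicates 1 to 3, and at 2.11, 11.5, 11.04 and 14.8 in mdx replicates 1 to 4. The groups overlapped, with the highest value in mdx/Runx1f/f replicate 3 and the lowest, 2 raw counts, in mdx replicate 1. The log2 fold change was 1.15 (SE 0.61, edgeR adjusted p = 0.248), and without mdx/Runx1f/f replicate 3 it was 0.44 (edgeR adjusted p = 0.651). Il1a, the gene of interleukin 1 alpha, had raw counts of 3, 5 and 1 in the libraries labelled mdx/Runx1f/f, and of 8, 1, 2 and 3 in those labelled mdx. It was left out by the filter, and a two-sided exact permutation test of log2(CPM + 1), where CPM is the count scaled to the library size, gave p = 0.857 over 35 splits, where the smallest possible is 0.0286. Depth limits what can be read from so few counts, and no difference was detectable.

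Il1rn, the receptor antagonist gene, had the largest log2 fold change of the 7 tested members and exceeded its level in mdx libraries 6.51-fold in those labelled mdx/Runx1f/f. It was at 66.6, 49.3 and 28.2 normalised counts in mdx/Runx1f/f replicates 1 to 3, and at 16.9, 5.22, 3.31 and 3.95 in mdx replicates 1 to 4. The groups did not overlap, and mdx replicate 1 was apart from the other mdx libraries, which held 5, 3 and 4 raw counts. The means were 48.0 ± 19.2 in mdx/Runx1f/f (SD, n = 3) and 7.35 ± 6.42 in mdx (SD, n = 4). The log2 fold change by edgeR was 2.70 (SE 0.55, adjusted p = 0.0319), and that of the authors' deposited comparison was 1.68. Il1rn passed the low-count filter only with the mdx/Runx1f/f libraries.

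The edgeR call of Il1rn was lost without mdx/Runx1f/f replicate 1 or 2 (adjusted p = 0.0647 and 0.0879) and without mdx replicate 2, 3 or 4 (adjusted p = 0.0723, 0.0867 and 0.0777), at log2 fold changes between 2.39 and 2.69. Without mdx replicate 1 the log2 fold change was 3.50 (edgeR adjusted p = 0.0202). Within animals 358 to 363 it was 2.39 (edgeR adjusted p = 0.163) and within animals 373 to 375 it was 2.91 (edgeR adjusted p = 0.0162). Gene counts do not part the secreted antagonist from its intracellular forms, which start at different first exons. RefSeq lists 3 starts, and the windows of the outermost are shown for that reason (GRCm38.p6, forward strand, chr2:24336610-24336859 and chr2:24345121-24345370). Capitals mark an AP-1 word before start 1, and none of the 3 windows held a RUNX word.
Il1rn start 1: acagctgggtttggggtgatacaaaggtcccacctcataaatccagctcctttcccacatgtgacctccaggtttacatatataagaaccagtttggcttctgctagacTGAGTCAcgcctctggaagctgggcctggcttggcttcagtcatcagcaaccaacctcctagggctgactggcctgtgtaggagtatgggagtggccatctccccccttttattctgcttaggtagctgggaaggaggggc
Il1rn start 3: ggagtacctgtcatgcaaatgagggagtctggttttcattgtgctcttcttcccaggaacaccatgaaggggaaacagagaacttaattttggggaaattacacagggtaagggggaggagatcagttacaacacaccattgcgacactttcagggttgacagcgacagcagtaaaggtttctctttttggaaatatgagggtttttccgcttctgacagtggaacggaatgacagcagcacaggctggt

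Il1r2, the decoy receptor gene, had raw counts of 6, 32 and 6 in the libraries labelled mdx/Runx1f/f, against 5, 10, 8 and 8 in those labelled mdx. Replicate 2 of mdx/Runx1f/f stood alone, and the other mdx/Runx1f/f libraries lay among the mdx ones. The gene was left out by the filter, and the exact permutation test gave p = 0.714 (difference in log2(CPM + 1) of 0.16, two-sided). The antagonist and the decoy thus had different patterns over the same 7 libraries: mdx/Runx1f/f replicate 1 was the highest for Il1rn and among the lowest for Il1r2.

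**Figure D2:**
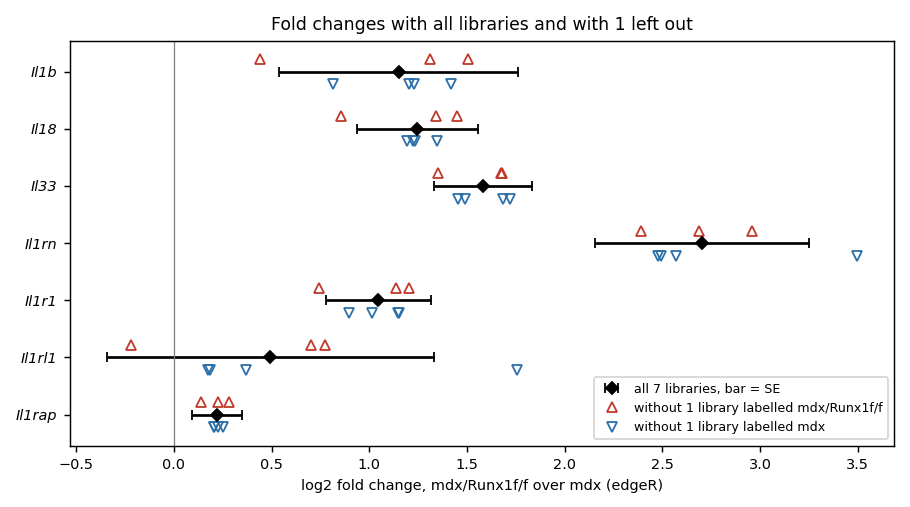
Log2 fold change, mdx/Runx1f/f over mdx, of the 7 tested members by edgeR; diamonds are the fit of all 7 libraries with its SE, and triangles the fits without 1 library of either group. Il33 stayed between 1.35 and 1.72 and Il1rn between 2.39 and 3.50, whereas Il1rl1 ran between -0.22 and 1.75.

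Il1r1, the signalling receptor of both interleukin 1 ligands, was at 308, 561 and 346 normalised counts in mdx/Runx1f/f replicates 1 to 3, and at 186, 239, 128 and 234 in mdx replicates 1 to 4. The groups did not overlap. The means were 405 ± 136 in mdx/Runx1f/f (SD, n = 3) and 197 ± 51.7 in mdx (SD, n = 4), and the log2 fold change of 1.05 (SE 0.27) missed the threshold by edgeR (adjusted p = 0.0551) and passed it by DESeq2 (adjusted p = 0.00600). Leaving out mdx/Runx1f/f replicate 2 gave 0.74 (edgeR adjusted p = 0.168). Within animals 358 to 363 it was 1.05 and within animals 373 to 375 it was 0.93 (edgeR adjusted p = 0.207 and 0.0649). Il1rap, the accessory subunit shared by the receptors of interleukin 1 and interleukin 33, was the steadiest member, at 131, 149 and 119 normalised counts in the libraries labelled mdx/Runx1f/f, against 112, 116, 110.4 and 120.4 in those labelled mdx. Its groups overlapped, and its log2 fold change was 0.22 (SE 0.13, edgeR adjusted p = 0.280).

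Il1rl1, the gene of the interleukin 33 receptor ST2, differed more within the groups than between them. It stood at 47.0, 148 and 55.3 normalised counts in mdx/Runx1f/f replicates 1 to 3, and at 44.4, 165, 15.5 and 14.8 in mdx replicates 1 to 4. The highest library was thus mdx replicate 2, followed by mdx/Runx1f/f replicate 2, and the lowest were mdx replicates 3 and 4. The means were 83.4 ± 56.0 in mdx/Runx1f/f (SD, n = 3) and 59.9 ± 71.4 in mdx (SD, n = 4), and edgeR put the log2 fold change at 0.49 (SE 0.84, adjusted p = 0.727).

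The direction of Il1rl1 rested on single libraries. The log2 fold change was -0.22 without mdx/Runx1f/f replicate 2 and 1.75 without mdx replicate 2 (edgeR adjusted p = 0.924 and 0.131). Within animals 358 to 363 it was -0.08 (edgeR adjusted p = 0.966). Within animals 373 to 375, with that lone mdx/Runx1f/f library, it was 1.87 (edgeR adjusted p = 0.0162). The difference between the animal number ranges was not tested. The soluble and the membrane form of ST2 come from different transcripts of this gene and are not parted by its count. Of its 2 RefSeq windows the one at chr1:40439379-40439628 (GRCm38.p6, forward strand) is shown because it ends in a RUNX word, in capitals.
Il1rl1 start 2: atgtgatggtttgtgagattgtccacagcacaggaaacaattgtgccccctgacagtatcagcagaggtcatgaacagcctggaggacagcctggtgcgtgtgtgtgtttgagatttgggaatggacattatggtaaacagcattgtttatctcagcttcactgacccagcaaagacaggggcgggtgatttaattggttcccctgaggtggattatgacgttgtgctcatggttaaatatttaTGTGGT

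In the mouse genome Il1r2, Il1r1, Il1rl2, Il1rl1, Il18r1 and Il18rap are 6 neighbouring protein-coding genes of chromosome 1, of which 3 were tested. Il1rl2, the receptor gene for interleukin 36, reached 1.12 on the log2 scale (edgeR adjusted p = 0.0576), next to 1.05 (SE 0.27) for Il1r1 and 0.49 (SE 0.84) for Il1rl1. Of these 3 edgeR called none at the adjusted threshold, while DESeq2 called Il1rl2 and Il1r1 (adjusted p = 0.0122 and 0.00600) and limma-voom called Il1rl2 (adjusted p = 0.0439). Il18r1 and Il18rap, which encode the interleukin 18 receptor, had at most 11 and 13 raw counts in a library and were left out by the filter with Il1r2.

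Levels of different members were compared per kilobase of exon, from GENCODE M21, in CPM (counts scaled to the library size). The length joins the exons of all annotated transcripts of a gene, whichever of them are expressed. In the libraries labelled mdx/Runx1f/f Il33 came first at 6.81 ± 1.71 (SD, n = 3), above Il1r1 at 3.62 ± 1.18 with no overlap, and Il18 followed at 2.13 ± 0.870, overlapping Il1r1. Il1rl1, Il1b and Il1rap came next, at 0.686 ± 0.454, 0.671 ± 0.465 and 0.666 ± 0.0699, and did not differ beyond their spread. Il1rn was at 0.494 ± 0.201, Il1r2 at 0.363 ± 0.307 and Il1a at 0.0750 ± 0.0396. In the libraries labelled mdx Il33 was at 2.28 ± 0.651 (SD, n = 4) and overlapped Il1r1 at 1.75 ± 0.463, and Il18 was at 0.904 ± 0.128. Il1rap, Il1rl1, Il1b and Il1r2 followed at 0.572 ± 0.0242, 0.491 ± 0.584, 0.293 ± 0.162 and 0.241 ± 0.0634. The lowest were Il1a at 0.105 ± 0.0946 and Il1rn at 0.0752 ± 0.0659, which overlapped. By its mean Il1rn thus stood in place 7 of 9 in the mdx/Runx1f/f libraries and in place 9 in the mdx libraries. Its mdx/Runx1f/f values overlapped those of Il1rl1, Il1b, Il1rap and Il1r2, so these places are not resolved.

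Ratios of raw counts within a library need no scaling between libraries. The ratio of Il1rn to Il1b was 4, 4.64 and 0.703 in mdx/Runx1f/f replicates 1 to 3, and 8, 0.455, 0.3 and 0.267 in mdx replicates 1 to 4. It was above 1 in both mdx/Runx1f/f replicates 1 and 2 and in mdx replicate 1, whose 16 and 2 counts give a 95% exact binomial interval of 1.88 to 71.7, so the groups overlapped. The ratio of Il1rn to Il1r1 was 0.216, 0.0878 and 0.0815 in the mdx/Runx1f/f libraries, and 0.0909, 0.0218, 0.0259 and 0.0169 in the mdx libraries, again with mdx replicate 1 among the mdx/Runx1f/f values. The ratio of Il1r2 to Il1r1 was 0.0188 to 0.0432 in the mdx/Runx1f/f libraries and 0.0284 to 0.0690 in the mdx libraries. The ratio of Il1rl1 to Il33 was 0.158 to 0.329 in the mdx/Runx1f/f libraries, and in the mdx libraries it was 0.298, 1.18, 0.187 and 0.160. The raw ratio of mdx replicate 2 stood above those of the other libraries, and its interval of 0.931 to 1.496 includes 1. Raw counts are not scaled for gene length: per kilobase that library had Il1rl1 at 1.35 CPM and Il33 at 2.74 CPM. These intervals cover counting error only.

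**Figure D3:**
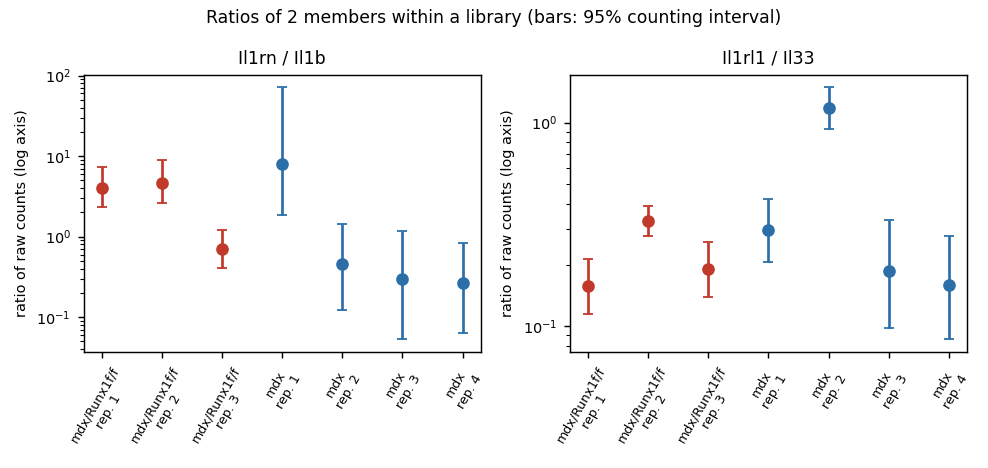
Ratios of raw counts in each library on a log axis, Il1rn to Il1b at the left and Il1rl1 to Il33 at the right, mdx/Runx1f/f libraries before mdx libraries; bars are 95% exact binomial counting intervals. Il1rn exceeded Il1b in mdx/Runx1f/f replicates 1 and 2 and mdx replicate 1, and the raw ratio of Il1rl1 to Il33, not scaled for gene length, was highest in mdx replicate 2 (1.18, interval 0.931 to 1.496).

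Markers of 2 cell types known to make these cytokines moved with the group as well. Over all 14033 genes tested edgeR called 5.1% higher and 1.85% lower. For fibro-adipogenic progenitors, which are muscle stroma, 12 of 15 tested markers rose and 0 fell, and their summed level was 8321 to 9621 CPM in the libraries labelled mdx/Runx1f/f and 2903 to 4172 CPM in those labelled mdx. Of 21 macrophage and monocyte markers 7 rose and 0 fell, with sums of 999 to 2648 CPM in the mdx/Runx1f/f libraries and of 281 to 1181 CPM in the mdx libraries. No marker of either list was at 0. The macrophage sum in mdx replicate 1, at 1181 CPM, was above the 999 CPM of mdx/Runx1f/f replicate 3. Single markers differed in this order. In these 2 libraries Spp1 had 3162 and 264 raw counts, Lyz2 6203 and 4965, and Csf1r 1234 and 1470. Spp1 had 417, 61 and 67 in mdx replicates 2 to 4. The library mdx replicate 1 also had the highest Il1rn of its group. The part of these cells in the values of Il33 and Il1rn was not tested.

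Markers of cell types that carry ST2 or respond to interleukin 33 had low sums. Those for mast cell markers were 17.1 to 28.2 CPM in the libraries labelled mdx/Runx1f/f and 10.97 to 18.3 CPM in those labelled mdx, and edgeR called 0 of 7, with 3 at an unadjusted p below 0.05, 2 by DESeq2 and 0 by limma-voom. For regulatory and other T cells sums were 11.8 to 16.3 CPM in the mdx/Runx1f/f libraries and 11.5 to 14.4 CPM in the mdx libraries. Of 5 tested markers edgeR called 1 higher and 0 lower, namely Cd4 (log2 fold change 2.42, adjusted p = 0.00880). Cd4 had 56, 50 and 55 raw counts in the mdx/Runx1f/f libraries and 7, 7, 11 and 11 in the mdx libraries. Ikzf2 leaned the other way and was not called (-0.55, edgeR adjusted p = 0.127). Foxp3, which defines regulatory T cells, was not tested. It had 5, 2 and 3 raw counts in the mdx/Runx1f/f libraries and 4, 4, 4 and 8 in the mdx libraries. Sums for type 2 innate lymphoid cells were 9.13 to 19.8 CPM in the mdx/Runx1f/f libraries and 5.73 to 20.6 CPM in the mdx libraries. Il13 was at 0 in every library. Eosinophil markers summed to 0.617 to 2.08 CPM in the mdx/Runx1f/f libraries and to 0 to 0.240 CPM in the mdx libraries, with Epx and Ear6 at 0. Markers of neutrophils, a further source of Il1rn and Il1r2, summed to 8.22, 16.4 and 4.38 CPM in mdx/Runx1f/f replicates 1 to 3, and to 9.90, 13.3, 3.49 and 1.74 CPM in mdx replicates 1 to 4, with Stfa2l1 at 0. That sum was thus highest in replicate 2 of each group, as Il1rl1 was, but it rested largely on Csf3r. Csf3r had 101, 301 and 47 raw counts in mdx/Runx1f/f replicates 1 to 3, and 130, 154, 32 and 18 in mdx replicates 1 to 4. No other marker of the list passed 28 counts in a library, and 6 of the 12 stayed below 10 in each. The part of neutrophils in Il1rl1 was not tested. Of 3 tested markers each of neutrophils and of type 2 innate lymphoid cells edgeR called 0, with 0 at an unadjusted p below 0.05 and 0 by DESeq2 or limma-voom, and no eosinophil marker was tested. Among all 14033 genes tested by edgeR, 4135 had an unadjusted p below 0.05.

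Markers of other cells of the muscle were read in the same way, beside 4135 of all 14033 tested genes at an unadjusted p below 0.05 by edgeR. Slow fibre markers summed to 8201 to 28114 CPM in the libraries labelled mdx/Runx1f/f and to 30255 to 50746 CPM in those labelled mdx, and of 9 edgeR called 0, while 6 had an unadjusted p below 0.05, DESeq2 called 4 lower and limma-voom 0. Adipocyte markers summed to 150.3 to 425 CPM in the mdx/Runx1f/f libraries and to 75.4 to 118 CPM in the mdx libraries, with 4 of 8 called higher. Tendon markers summed to 1381 to 2362 CPM in the mdx/Runx1f/f libraries and to 330 to 929 CPM in the mdx libraries, with 1 of 7 called higher. Sums of endothelial, fast fibre and regenerating fibre markers overlapped between the groups, and 1 of 10, 0 of 9 and 0 of 10 were called by edgeR, with 1, 1 and 4 at an unadjusted p below 0.05, 1, 1 and 1 by DESeq2 and 1, 0 and 0 by limma-voom. The fast fibre sum hides a wide spread of Myh4, at 251266, 70231 and 1192 raw counts in mdx/Runx1f/f replicates 1 to 3. In the mdx libraries Myh4 had 699, 1933, 8135 and 3320 (edgeR adjusted p = 0.0806). The median log2 fold change of the fast fibre list was 0.07. The part of all these cells in the members' values was not tested.

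**Figure D4:**
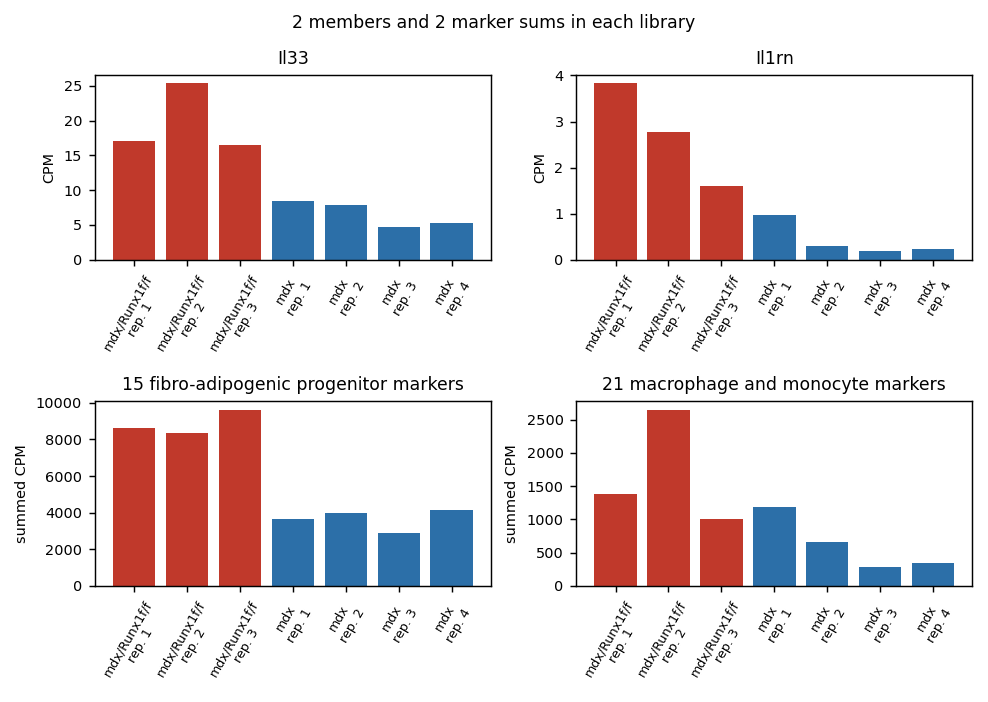
Il33, Il1rn and the summed levels of 2 marker lists in each library, in CPM, mdx/Runx1f/f libraries left of mdx libraries. Il33 and the stromal markers are parted between the groups. The macrophage sum of mdx replicate 1 (1181) lies above that of mdx/Runx1f/f replicate 3 (999), with Spp1 at 3162 and 264 raw counts.

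The genes most like the called members over the 7 libraries were sought among 12125 tested genes, by the root mean square difference in log2 CPM after centring each gene. For Il33 they were Clec10a, Cx3cr1 and Anpep, at differences of 0.09, 0.12 and 0.14, with log2 fold changes of 1.62, 1.54 and 1.54. For Il1rn they included Itgax and Nrcam, at 0.16 and 0.36, with log2 fold changes of 2.41 and 2.16. Clec10a, a lectin gene, was at 207, 298 and 188 normalised counts in the libraries labelled mdx/Runx1f/f, against 95.1, 91.9, 59.6 and 54.3 in those labelled mdx. Itgax, the CD11c integrin gene, was at 271, 214 and 155 normalised counts in the mdx/Runx1f/f libraries, against 79.2, 33.4, 26.5 and 22.7 in the mdx libraries. In both genes the groups did not overlap, and mdx replicates 1 and 2 were above mdx replicates 3 and 4. They were picked for likeness to Il33 or Il1rn over these same libraries. Their fold changes, parted groups and library order follow from that choice and are no separate result. Itgax and Cx3cr1 are also on the macrophage list.

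The rest of the pathway was read from 6 lists. Beside their counts stand the shares over all 14033 genes tested by edgeR, 5.1% called higher and 1.85% lower. At an unadjusted p below 0.05 there were 4135 of these genes. Of 12 further family genes present, 3 were tested, and edgeR called 0 of them, with 2 at an unadjusted p below 0.05, 2 by DESeq2 and 1 by limma-voom. The interleukin 36 ligand and antagonist genes, listed under the older symbols Il1f5, Il1f6, Il1f8 and Il1f9, had at most 4 counts in a library, and 0 counts in each library for the first 3. A count of 0 allows up to 3 counts, or 0.144 to 0.185 CPM at these depths. Il18bp, whose product neutralises interleukin 18, had a log2 value of 0.47 for mdx/Runx1f/f over mdx, and Sigirr, an inhibitory receptor gene, one of -0.19 (edgeR adjusted p = 0.0743 and 0.490).

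Of 18 tested genes of the inflammasome and of interleukin 1 release, edgeR called 4 higher and 0 lower, DESeq2 called 7 higher and 0 lower, and the median log2 fold change was 0.79. Of the 18, 3 passed the low-count filter only with the mdx/Runx1f/f libraries, Mefv among them, which leans the count and the median towards higher values, here and in both response lists. The called genes were Casp4, the caspase that senses lipopolysaccharide (1.43, edgeR adjusted p = 0.0348), P2rx7, the ATP-gated channel that triggers release (1.14, edgeR adjusted p = 0.0370), Gsdmd, the pore-forming gasdermin (0.69, edgeR adjusted p = 0.0390), and Mefv, which encodes pyrin (1.73, edgeR adjusted p = 0.0487). P2rx7 was at 341, 452 and 301 normalised counts in the libraries labelled mdx/Runx1f/f, against 235, 178, 118 and 133 in those labelled mdx. Casp1, the caspase that cleaves both precursors, was not called by edgeR at a log2 fold change of 1.16 (adjusted p = 0.105).

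Of 17 tested genes of signalling below the receptors edgeR called 0, with 4 at an unadjusted p below 0.05, 3 by DESeq2 and 0 by limma-voom, and the median was 0.02. The smallest p was that of the kinase gene Irak4 (0.85, edgeR adjusted p = 0.0541). Of 12 tested NF-kB subunits and inhibitors edgeR called 0, with 2 at an unadjusted p below 0.05, 1 by DESeq2 and 0 by limma-voom, at a median of 0.12. The smallest p was that of Bcl3, a nuclear NF-kB cofactor (1.11, edgeR adjusted p = 0.0642). Both counts at an unadjusted p below 0.05 stand beside 4135 of all 14033 genes tested by edgeR.

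Of 16 tested genes known to respond to interleukin 1 or NF-kB edgeR called 4 higher and 0 lower, with 9 at an unadjusted p below 0.05, and DESeq2 called 6 higher and 1 lower. Their median was 0.95, and 7 of the 16, Ptgs2 among them, passed the low-count filter only with the mdx/Runx1f/f libraries. Mmp3, a matrix metalloproteinase gene, was at 168, 149 and 241 normalised counts in the libraries labelled mdx/Runx1f/f, against 23.2, 73.1, 28.7 and 17.8 in those labelled mdx (2.38 on the log2 scale, SE 0.45, edgeR adjusted p = 0.0268). The prostaglandin synthesis genes Ptgs2 and Ptges had log2 fold changes of 1.88 and 1.14 (edgeR adjusted p = 0.0239 and 0.0289). The adhesion gene Icam1 had 0.98 (edgeR adjusted p = 0.0332). Of the 16, 13 had a positive log2 fold change. Cxcl1, Ccl2, Nos2 and Sod2 were not called, at -0.0013, 0.18, -0.75 and -0.48 (edgeR adjusted p = 0.997, 0.907, 0.427 and 0.101). Il6, Tnf, Cxcl2 and Csf3 of this list were left out by the filter. Of 8 tested genes of the response to interleukin 33 and type 2 cytokines edgeR called 2 higher and 0 lower and DESeq2 3 higher and 0 lower, with a median of 0.97, and 1 passed the filter only with the mdx/Runx1f/f libraries. The called genes were Retnla, an effector gene of alternatively activated macrophages, at 180.2, 209 and 317 normalised counts in the mdx/Runx1f/f libraries against 106, 102, 68.5 and 58.2 in the mdx libraries (1.49, edgeR adjusted p = 0.0243), and the receptor gene Il13ra1 (1.02, edgeR adjusted p = 0.0478). Arg1 and Chi3l3, on the same list, were not called, at log2 fold changes of -1.16 and 0.52 (edgeR adjusted p = 0.547 and 0.815). The type 2 cytokine genes Il4, Il9 and Il13 had no count in any library.

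**Figure D5:**
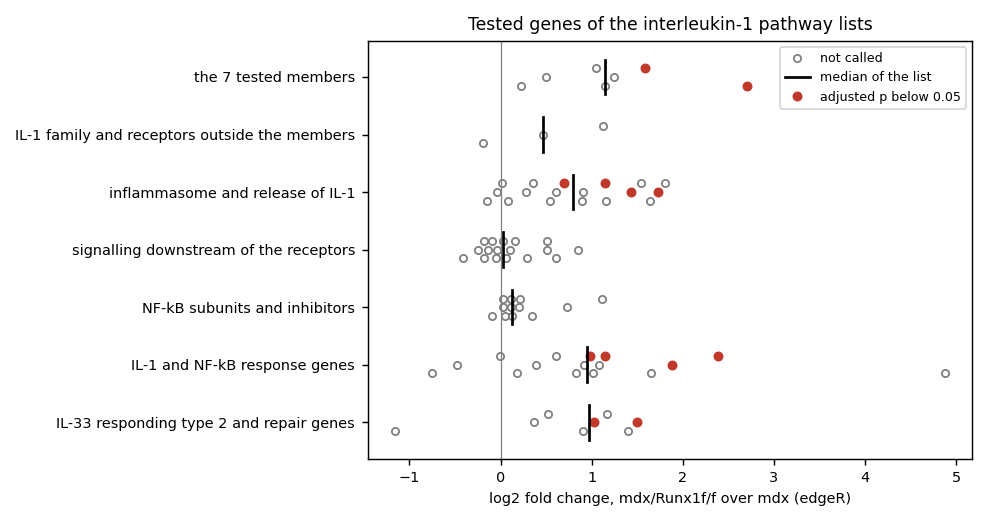
Log2 fold change, mdx/Runx1f/f over mdx, of the tested members and of each tested gene in the 6 pathway lists by edgeR; filled points have an adjusted p below 0.05 and the vertical line is the list's median. The medians are near 0 for signalling (0.02) and NF-kB genes (0.12) and between 0.79 and 1.15 for the members, the inflammasome, and both response lists.

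The 10 called genes of these lists kept their sign without any 1 of the 7 libraries but seldom the call. They lost it in 6, 9 and 7 cases without mdx/Runx1f/f replicates 1, 2 and 3, and in 5, 6, 9 and 9 without mdx replicates 1 to 4, at adjusted p-values by edgeR between 0.0511 and 0.163. Retnla kept it in 4 of these 7 fits, Ptgs2 and Mmp3 in 3, Ptges, Icam1 and Il13ra1 in 2, Casp4, P2rx7 and Gsdmd in 1, and Mefv in 0.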

How the data were processed

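RNA was extracted from whole soleus of 7 mice and sequenced after TruSeq library preparation, per the labels' protocols. The deposited table holds raw read counts per gene, made with TopHat2 2.0.10 and HTSeq on mm9, per the submitters' processing notes. For the annotation, strand setting and reads with several matches nothing is stated in the sources used here. The authors also deposited normalised counts, a signal made by dividing each library by 1 size factor (checked on the values), and a comparison whose log2 fold change, score and p-value columns carry DESeq2's names, per the file headers. The notes name DESeq2 1.6.3.

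Columns were joined to samples by the animal number in the titles, which name 7 different animals. Counts were tested with edgeR 4.0.16 in R 4.3.3 (TMM, filterByExpr, quasi-likelihood test, group as the only term, Benjamini-Hochberg over 14033 genes). The SE is the log2 fold change over the root of F. CPM uses TMM library sizes, with a pseudocount of 1 in permutation tests and a prior count of 2 for the likeness of genes. DESeq2 1.42.0 and limma 3.58.1 (voom) were alternatives. On simulated counts for this comparison, of which 13851 genes were tested, the procedure recovered 52.0% of genes changed 2-fold and 88.8% of those changed 4-fold, with 6.08% false calls.

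The members and lists were chosen with earlier results of these data known. Named are the 9 members, Runx1, the called genes of each pathway list (up to 4 with the smallest p, or the 1 with the smallest p where none was called) and the 3 genes most like each called member, with a mean of at least 20 normalised counts; some genes that the rule names are not reported here. Other genes named, such as Il18bp, Sigirr, Casp1, Foxp3 and Mmp13, were chosen after their values were seen. Of 251 list entries 238 were in the table. Promoter sequences are RefSeq's, matched by symbol for all 9 members. Their build differs from mm9 and no value was read by their coordinates.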

Additional observations from a re-analysis of the deposited data

Results flagged for a closer look

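Il1rn in mdx replicate 1 was at 16.9 normalised counts, far from the other 3 libraries labelled mdx, which lay between 3.31 and 5.22. Among the 9 members and Runx1 it was the only gene with a library that stood apart in this way in the group of 4, and about 1 in 20 such groups is expected to hold one by chance. The same library had 2 raw counts of Il1b. It had the highest macrophage marker sum of its group, 1181 CPM against 281 to 667 CPM in the others. That sum included 3162 raw counts of Spp1, against 417, 61 and 67 in mdx replicates 2 to 4. The part of macrophages in this value was not tested.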

How the results depend on the processing

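Genes called higher and lower numbered 715 and 260 by edgeR, 1491 and 905 by DESeq2, 1246 and 582 with a covariate for the range of the animal number, 1361 and 440 in animals 373 to 375 alone (1 library against 2), and 5 and 3 with groups by the description field. Animals 358 to 363 alone gave 0 and 0 by edgeR, with 2669 genes at an unadjusted p below 0.05, 722 calls by DESeq2 and 0 by limma-voom. With 1 library left out there were 173 to 641 higher and 17 to 209 lower genes. Members called higher numbered 2 by edgeR, 4 by DESeq2, 0 in animals 358 to 363 alone (4 at an unadjusted p below 0.05, 2 called by DESeq2), 0 by the description field and 0 to 3 with 1 library left out, and no setting called a member lower. Runx1 had a log2 fold change of 1.77 in animals 358 to 363, not called (edgeR adjusted p = 0.131), and -0.80 by the description field. By the description field Il33, Il1rn, Il18, Il1r1, Il1rap and Il1rl1 also turned to -0.74, -1.56, -0.76, -0.46, -0.12 and -1.82, and Il1r2 to a difference in log2(CPM + 1) of -0.15. That setting moves libraries between the groups. Its groups are the ranges of the animal number, so it, the range covariate and the fits within a range all use 1 split of the libraries. Il1rl1 turned to -0.076 in animals 358 to 363, was 1.87 and called in animals 373 to 375, and ran between -0.22 (without mdx/Runx1f/f replicate 2) and 1.75 with 1 library left out. Il1r2 turned to -0.10 in animals 373 to 375 and ran between -0.10 and 0.31 with 1 library left out, and Il1a turned to 0.038 without mdx replicate 1. The cause was not tested. RLE scaling, no filter and limma-voom kept the sign of each of the 7 tested members, as did a filter of 1 CPM, which left out Il1b.

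The title numbers were checked as pairs: same-numbered libraries deviated from their group means with correlations of -0.00021, 0.289 and 0.292, and 3 of 6 libraries correlated best with their own number. Of the pairs 2 had a correlation over 0.1, so these values do not settle whether the numbers pair the animals. The main test has no block for them. With the replicate block edgeR called 240 genes higher and 80 lower and 3 members, Il33, Il1rn and Il1r1 (adjusted p = 0.0467 each). Il1a and Il1r2 were not recomputed under other filters, tools or the block, since they have no value in the test across genes. At 1 to 8 counts of Il1a a library, depth sets the precision.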

Other observations

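The libraries with high Il1rl1, mdx/Runx1f/f replicate 2 at 148 and mdx replicate 2 at 165 normalised counts, were set beside the tested genes most like it over the 7 libraries, a choice made after its values were seen. These included Ccr2 and Ccl2, at root mean square differences of 0.48 each in centred log2 CPM, further than the nearest genes of Il33 and Il1rn. Ccl2, the gene of a monocyte-attracting chemokine, was at 75.4, 86.5 and 29.3 normalised counts in mdx/Runx1f/f replicates 1 to 3, and at 42.3, 157, 13.2 and 15.8 in mdx replicates 1 to 4. Ccr2, the gene of its receptor, was at 873, 1371 and 618 normalised counts in mdx/Runx1f/f replicates 1 to 3, and at 578, 937, 226 and 192 in mdx replicates 1 to 4. Ccl2 and Il1rl1 were thus both highest in mdx replicate 2, which the choice by likeness favours, and none of these 3 genes was called by edgeR.

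Mmp13, a collagenase gene on the list of interleukin 1 responses, had a log2 fold change of 4.88 that edgeR did not call (adjusted p = 0.0536), and it passed the low-count filter only with the mdx/Runx1f/f libraries. It stood at 36.2, 40.2 and 627 normalised counts in mdx/Runx1f/f replicates 1 to 3, and at 8.45, 0, 9.94 and 12.8 in mdx replicates 1 to 4. Replicate 3 of mdx/Runx1f/f, which carries this value, was also the library with the highest Il1b, at 40.1 normalised counts. It had the lowest Il1rn of its group, at 28.2. A link between these values of 1 library was not tested.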
